A study of Mus musculus with 4 samples.

Results

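Genes of fatty acid oxidation, ketone body metabolism and the peroxisome proliferator-activated receptor (PPAR) response were examined in mouse colon tumours with and without the kinase gene Gsk3b in the intestinal epithelium. The set is a list of 31 gene symbols chosen for their roles, with earlier results of these data known. They were matched exactly to the symbols of the deposited count tables, where all 31 were found among 26214 rows. The tumours came from the azoxymethane and dextran sulfate sodium model, in which a chemical mutagen is combined with chemical colitis. Polyadenylated RNA of colon cancer tissue was sequenced from 4 libraries, of which 2 carry the label Gsk3b (IEC+/+) and 2 the label Gsk3b (IEC-/-), IEC standing for the intestinal epithelial cells that lose the gene. Both groups therefore share the tumour induction and differ in the labelled epithelial Gsk3b state. The sources used here do not give the Cre driver, the deleted exons, the age of the mice or whether each library came from a separate mouse. The p-values therefore reflect the spread among these libraries only, which may be technical.

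Mitochondrial beta-oxidation shortens fatty acids step by step and passes electrons to the respiratory chain. Long chains are first activated to acyl-CoA and enter the mitochondrion through the carnitine shuttle, whereas short chains such as butyrate, the bacterial product that feeds colonocytes, enter without it. Acetyl-CoA from the pathway can be joined into ketone bodies. PPARs are nuclear receptors that bind fatty acids and raise the transcription of many of these genes.

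Total counts were 25472503 to 27218515 per library, and levels below are given as CPM on TMM-normalized library sizes. Gsk3b itself had 170.5 and 157 CPM in the IEC+/+ libraries, and 152.5 and 149 in those of IEC-/- (fitted log2 change -0.12, edgeR adjusted p = 0.681), so its count does not check the labels, and the groups are called by them. The 10 general epithelial markers summed to 11960 and 10170 CPM in the IEC+/+ libraries, and 6513 and 6115 in those of IEC-/-. The 10 markers of differentiated colonocytes summed to 763 and 373 CPM against 75.7 and 86.5 CPM. In tissue RNA, fewer cells of a type and less RNA per cell cannot be told apart.

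None of the members passed the test of IEC-/- against IEC+/+, but most of them lay slightly lower in IEC-/-. The filter on low counts kept 30 of the 31, leaving out Fabp1. By edgeR's quasi-likelihood test at an adjusted p of 0.05, 0 of these 30 were called, where 0.884% of the 16637 genes in the fit were. That is 0 lower, beside a background of 0.763%, and 0 higher, beside 0.120%. With the unadjusted p held to 0.05 instead, 3 were lower (9.12% in the background) and 2 higher (7.50%). DESeq2 called 1 lower and 1 higher, Bdh1 and Pdk4, where it called 4.90% of all genes lower and 2.93% higher. The exact test of edgeR called the same 2 genes (background 3.37% lower and 1.85% higher), and limma-voom called 0 (background 0.469%). With its unadjusted p held to 0.05, limma-voom had 4 members lower (background 9.12%) and 1 higher (background 6.82%).

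The fitted log2 fold change was under 0 for 25 of the 30 members, or 83.3%, against 48.5% of all genes tested. The median over the members was -0.27 and over all genes 0.01. The IEC-/- values lay wholly below the IEC+/+ values for 17 of the 30 members, or 56.7%, against 24.1% of all genes tested. They lay wholly above for 4 of the 30, against 24.0% of all genes. The groups overlapped for the other 9. As the members were chosen with earlier results of these data known, these shares only describe the list. Changes were small: 25 of the 30 were within 1.5-fold. IEC+/+ replicate 1 was the highest library for 18 members and IEC+/+ replicate 2 for 6, while IEC-/- replicates 1 and 2 were the lowest for 12 and 13. The IEC+/+ libraries also differed from each other, replicate 2 lying below replicate 1 in 23 members with a median log2 ratio of -0.13. The IEC-/- libraries differed by a median of -0.02. Without IEC+/+ replicate 1 the median over the members was -0.15, and without IEC+/+ replicate 2 it was -0.32.

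**Figure D1:**
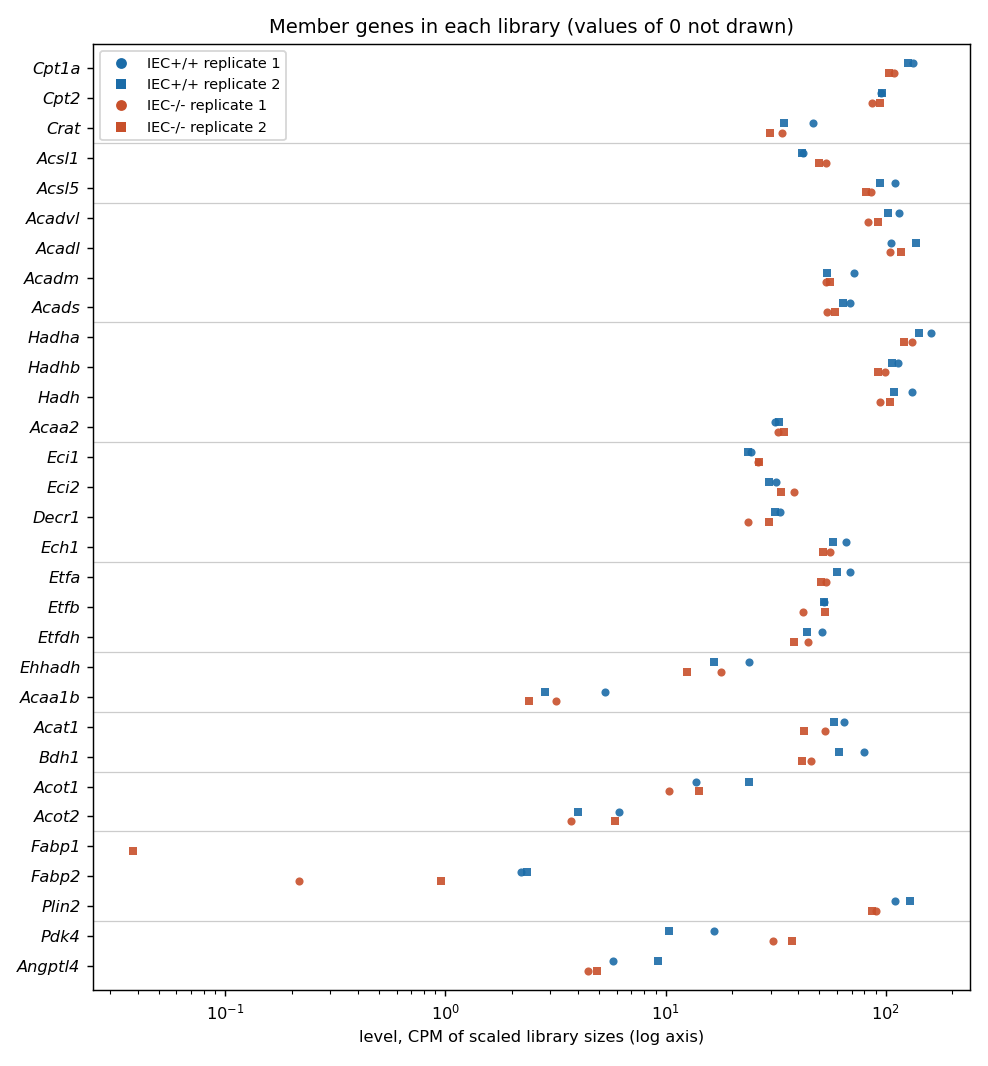
Level of each of the 31 members in each library (CPM of scaled library sizes, log axis), in order of role, with grey lines between roles. Blue symbols are IEC+/+ and orange symbols IEC-/-, circles replicate 1 and squares replicate 2. Most orange symbols lie a little to the left of the blue ones, and those of Pdk4 lie to the right.

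Per kilobase of exon, the mitochondrial enzymes were among the most abundant members. On the scale of mean CPM per kilobase, with exon lengths from GENCODE, Hadh ranked first in IEC+/+ at 67.4, followed by the lipid droplet gene Plin2 at 63.5 and Acadl at 63.4. Etfb (58.7) and Hadhb (52.9) came next. Angptl4 (2.27), Acot2 (2.31), Fabp2 (2.36), Acaa1b (2.41) and Pdk4 (3.86) were the lowest apart from Fabp1. In IEC-/- Pdk4 stood at 9.82 CPM per kilobase and Hadh at 55.7.

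The carnitine shuttle genes were all lower in IEC-/- by small margins. Cpt1a, the outer-membrane palmitoyltransferase that commits long chains to oxidation, had 133 and 126 CPM in the IEC+/+ libraries, and 109 and 103 in those of IEC-/-. The groups did not overlap, and the IEC-/- to IEC+/+ ratio was 0.821 with a 95% interval of 0.672 to 1.00 (adjusted p = 0.308). Cpt2, the inner-membrane transferase, had 95.6 and 96.6 against 86.8 and 94.4 CPM. Crat, which acts on short acyl groups, had 46.8 and 34.5 against 33.9 and 29.8 CPM. Its IEC+/+ libraries differed by more than its lower IEC+/+ library differed from IEC-/- replicate 1. The 2 acyl-CoA synthetases went opposite ways. Acsl1 was at 42.0 and 41.5 CPM in IEC+/+ and higher, at 53.5 and 49.7 CPM, in IEC-/- (fitted log2 change 0.31, SE 0.12, adjusted p = 0.28). Acsl5, which is abundant in intestinal epithelium, was at 110.4 and 94.3 against 85.4 and 81.7 CPM (-0.29, SE 0.13, adjusted p = 0.348). The difference between the 2 genes was not tested.

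All 4 acyl-CoA dehydrogenases, which take the first oxidation step for very long, long, medium and short chains, had log2 fold changes between -0.13 and -0.31. Acadvl, for very long chains, had 115 and 102 CPM in the IEC+/+ libraries, and 83.3 and 91.9 in those of IEC-/-. Acads, the short-chain enzyme that acts on butyrate, had 68.8 and 64.0 against 54.1 and 58.9 CPM. For both, the IEC-/- libraries lay below the IEC+/+ libraries. Acadm, the medium-chain enzyme, overlapped, with 71.7 and 54.1 against 53.6 and 55.7 CPM, so that its lower mean came from IEC+/+ replicate 1 alone. Acadl, for long chains, also overlapped, with 106 and 137 against 105 and 117 CPM. Adjusted p-values of the 4 ran from 0.32 to 0.759.

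Among the enzymes of the later steps, the subunits of the trifunctional protein moved together in level. Hadha and Hadhb lie 272 bases apart on chromosome 5 and encode its alpha and beta subunits. Hadha had 159.9 and 142 CPM in the IEC+/+ libraries, and 132 and 121 in those of IEC-/-. Hadhb had 113 and 107 against 98.9 and 92.7 CPM. Their log2 fold changes were -0.26 (SE 0.13) and -0.20 (SE 0.12), and in each the groups did not overlap. Hadh, the short-chain 3-hydroxyacyl-CoA dehydrogenase, had 131 and 109.5 against 94.3 and 105 CPM (-0.27, SE 0.14). Acaa2, the mitochondrial thiolase, was level, at 31.5 and 32.9 against 32.6 and 34.5 CPM, with a ratio of 1.04 and an interval of 0.829 to 1.31. The smallest adjusted p among them was 0.397.

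The auxiliary enzymes that handle double bonds split in direction. The enoyl-CoA isomerase genes Eci1 and Eci2 were higher in both IEC-/- libraries, Eci1 at 24.3 and 23.6 against 26.4 and 26.6 CPM and Eci2 at 31.9 and 29.5 against 38.3 and 33.5 CPM. Decr1, the dienoyl-CoA reductase, was lower in both, at 33.2 and 31.5 against 23.6 and 29.5 CPM. Ech1, a dienoyl-CoA isomerase, was lower in both, at 66.4 and 57.8 against 56.0 and 51.9 CPM. The 4 log2 fold changes lay between -0.28 and 0.23, with adjusted p-values from 0.473 to 0.696, and the difference between them was not tested. The electron transfer flavoprotein genes Etfa and Etfb and their dehydrogenase gene Etfdh, through which acyl-CoA dehydrogenases feed electrons to ubiquinone, had log2 fold changes of -0.30, -0.14 and -0.20. Etfa did not overlap, with 68.6 and 59.8 against 53.4 and 50.7 CPM (adjusted p = 0.32), whereas Etfb and Etfdh did.

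**Figure D2:**
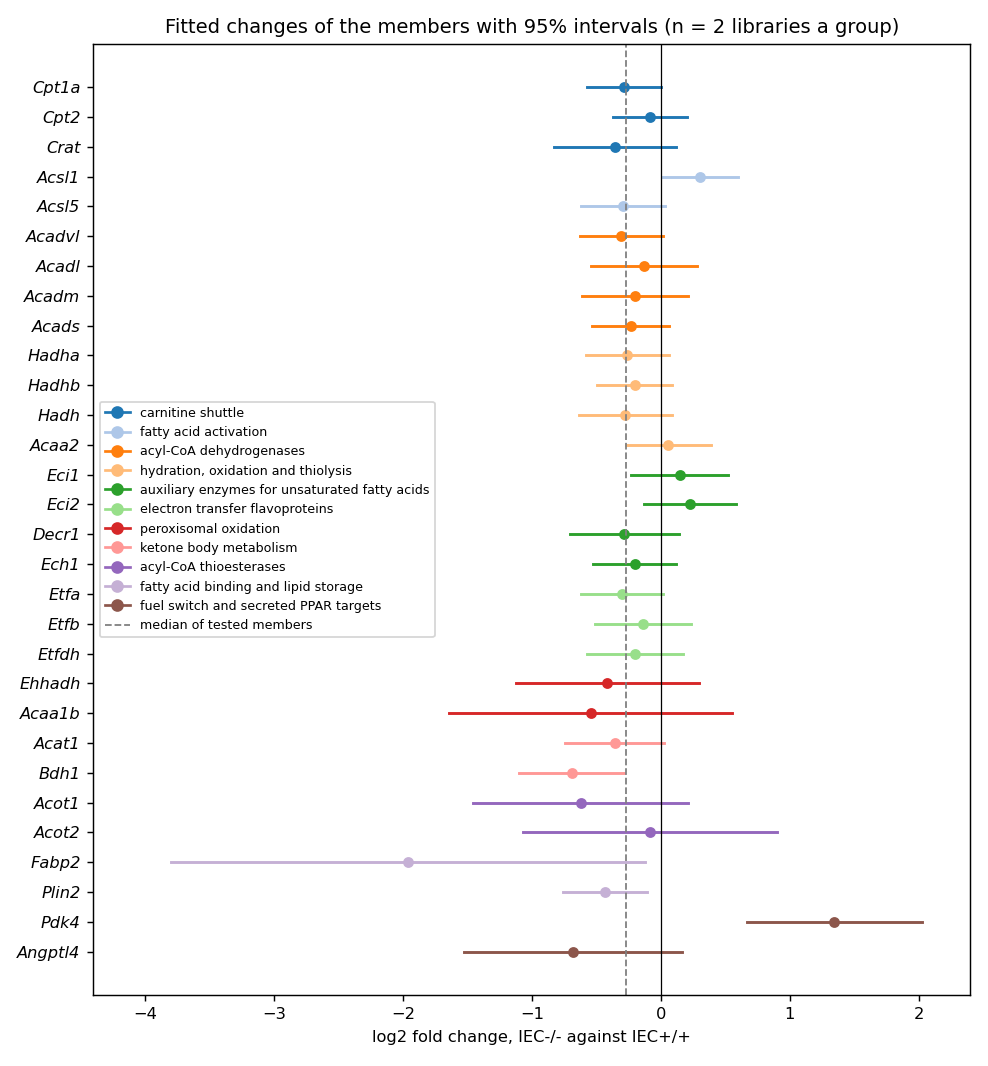
Fitted log2 fold change (IEC-/- against IEC+/+) of the 30 members tested, with 95% intervals from the edgeR fit; colours mark roles and the dashed line the members' median of -0.27. The intervals of Pdk4 and Acsl1 lie wholly to the right of 0, and those of Bdh1, Plin2 and Fabp2 wholly to the left.

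Peroxisomal members were low and variable. Ehhadh, the bifunctional enzyme of peroxisomal oxidation and a PPAR-alpha target in liver, had 23.9 and 16.6 CPM in the IEC+/+ libraries, and 17.8 and 12.5 in those of IEC-/-. Acaa1b, a peroxisomal thiolase, had 5.29 and 2.84 against 3.17 and 2.402 CPM. Groups overlapped in both, and the log2 fold changes of -0.42 and -0.54 had SEs of 0.28 and 0.44. The Acaa1b transcript shares 93.0% of its aligned bases with that of Acaa1a, and 13.3% of its 150-base windows, the length of a read here, occur unchanged in it. The sources used here do not say how such reads were counted, so the value of Acaa1b is uncertain. Acaa1a, listed among the related genes, had 68.2 and 65.5 against 60.6 and 71.3 CPM (fitted log2 change -0.02).

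Bdh1 was the member with the clearest lower level. It encodes the mitochondrial dehydrogenase that interconverts acetoacetate and beta-hydroxybutyrate, and lies on chromosome 16 from 31422297 to 31458901 (GRCm38). It had 80.0 and 61.4 CPM in the IEC+/+ libraries, and 45.7 and 41.9 in those of IEC-/-, means of 70.7 ± 13.1 and 43.8 ± 2.70 CPM (SD, n = 2 each). The groups did not overlap. The ratio was 0.619 with an interval of 0.466 to 0.822 (fitted log2 change -0.69, SE 0.16, unadjusted p = 0.00664, edgeR adjusted p = 0.134). Its adjusted p was 0.0174 with DESeq2, 0.0469 with the exact test and 0.155 with limma-voom, and from 0.0995 to 0.594 with 1 library left out. Acat1, the mitochondrial acetoacetyl-CoA thiolase, had 64.5 and 58.1 against 53.2 and 42.5 CPM (-0.36, SE 0.15, adjusted p = 0.331).

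Other ketone body genes were compared from a separate list. For this and the other related lists, the shares of all genes called by each test are those given above. So are the shares at the unadjusted p of edgeR and limma-voom, and those under 0 or without overlap. Of 7 genes 6 were tested and 0 passed by edgeR, DESeq2, the exact test or limma-voom (1 lower with the unadjusted p held to 0.05 by each). Oxct1, the enzyme of ketone body use, had 212 and 162 against 148 and 109.5 CPM (-0.54, SE 0.21, adjusted p = 0.284). Aacs, a cytosolic acetoacetyl-CoA synthetase gene, had a log2 fold change of -0.33.

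The thioesterases Acot1 and Acot2, which release free fatty acids from acyl-CoA in the cytosol and the mitochondrion, are neighbours on chromosome 12. Acot1 had 13.8 and 24.0 CPM in the IEC+/+ libraries, and 10.4 and 14.2 in those of IEC-/- (fitted log2 change -0.62, SE 0.33). Acot2 had 6.14 and 4.01 against 3.71 and 5.87 CPM (-0.08, SE 0.39). Groups overlapped in both, and in each group the library with more Acot1 was replicate 2. Their transcripts share 81.9% of aligned bases, and 9.84% of the 150-base windows of Acot1 occur in Acot2, so their separate values are uncertain.

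Genes of fatty acid binding and storage were lower where they could be measured. Plin2, which coats lipid droplets and responds to PPARs, had 111 and 129 CPM in the IEC+/+ libraries, and 90.5 and 86.9 in those of IEC-/-. The groups did not overlap, and the ratio was 0.74 with an interval of 0.591 to 0.927 (adjusted p = 0.20 by edgeR and 0.08 by DESeq2). Fabp2, the intestinal fatty acid binding protein, was counted 57 and 62 times in IEC+/+ and 6 and 25 times in IEC-/-. That is 2.20 and 2.35 against 0.216 and 0.953 CPM, a log2 fold change of -1.96 with an SE of 0.73 (adjusted p = 0.278). The size rested on the IEC-/- libraries, being -3.37 without IEC-/- replicate 2 and -1.26 without IEC-/- replicate 1. Fabp1, the liver fatty acid binding protein, was counted 0 times in 3 libraries and 1 time in IEC-/- replicate 2, so no fold was computed.

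Promoter sequence was examined for the element that PPARs bind with their partner RXR, called DR1, a direct repeat of AGGTCA with 1 base (N) between the copies. RefSeq windows on GRCm38 from 250 bases before to 50 after a start were found for 26 of the members, 28 windows in all. The promoters of Crat, Acaa2, Decr1, Acat1 and Angptl4 had no window and were not searched. With at most 2 mismatches in the 12 fixed letters on either strand, 3 of these windows (10.7%) held the element, against 3.86% of all 32851 windows. With at most 1 mismatch it was 1 window (3.57%, against 0.554%). The single repeat AGGTCA was in 17.9% of the members' windows and 16.3% of all. The 3 windows belonged to Fabp1, Plin2 and Etfa, and a match of letters is no evidence of binding. Their upstream 250 bases are shown with those of Pdk4, the member with the highest fold change, which held no such match. Capitals mark the match, which in all 3 reads as the repeat on the other strand.
Fabp1 (chr6:71199629-71199878, plus strand): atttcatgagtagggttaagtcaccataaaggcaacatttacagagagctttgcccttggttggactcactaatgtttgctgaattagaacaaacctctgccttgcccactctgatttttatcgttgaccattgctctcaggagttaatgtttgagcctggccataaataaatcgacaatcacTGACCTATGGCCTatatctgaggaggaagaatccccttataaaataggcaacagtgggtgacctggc
Plin2 (chr4:86670060-86670309, minus strand): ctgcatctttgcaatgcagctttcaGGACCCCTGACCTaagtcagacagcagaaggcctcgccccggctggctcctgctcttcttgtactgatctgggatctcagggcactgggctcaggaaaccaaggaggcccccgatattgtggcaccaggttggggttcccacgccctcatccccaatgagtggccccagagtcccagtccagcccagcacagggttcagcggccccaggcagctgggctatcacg
Etfa (chr9:55512244-55512493, minus strand): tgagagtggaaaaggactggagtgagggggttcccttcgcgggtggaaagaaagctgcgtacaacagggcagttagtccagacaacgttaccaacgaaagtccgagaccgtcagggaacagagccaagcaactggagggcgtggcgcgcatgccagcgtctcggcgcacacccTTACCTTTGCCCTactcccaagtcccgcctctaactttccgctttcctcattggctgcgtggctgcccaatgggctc
Pdk4 (chr6:5496279-5496528, minus strand): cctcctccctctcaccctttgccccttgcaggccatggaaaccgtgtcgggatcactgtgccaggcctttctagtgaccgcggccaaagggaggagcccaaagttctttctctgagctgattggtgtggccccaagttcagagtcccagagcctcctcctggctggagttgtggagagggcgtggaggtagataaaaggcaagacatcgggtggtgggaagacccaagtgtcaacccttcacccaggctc
Read on the other strand, the matches are AGGCCATAGGTCA in Fabp1 with 1 mismatch, AGGTCAGGGGTCC in Plin2 and AGGGCAAAGGTAA in Etfa with 2 each. The genes that held them thus included 1 that was not expressed at a measurable level and 2 with values lower in both IEC-/- libraries.

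Pdk4 had the highest fitted change of the 5 members that were higher in IEC-/-, the others being Acsl1, Eci1, Eci2 and Acaa2. It encodes a kinase that inhibits pyruvate dehydrogenase and so spares glucose while fatty acids are burnt, and lies on chromosome 6 from 5483351 to 5496278. It had 16.6 and 10.3 CPM in the IEC+/+ libraries, and 30.9 and 37.5 in those of IEC-/-, means of 13.5 ± 4.43 and 34.2 ± 4.68 CPM (SD, n = 2 each). Both IEC-/- libraries were higher, and the ratio was 2.54 with an interval of 1.58 to 4.07 (fitted log2 change 1.34, SE 0.27, unadjusted p = 0.00329, edgeR adjusted p = 0.102). Its adjusted p was 0.00042 with DESeq2, 0.00331 with the exact test and 0.0967 with limma-voom. With 1 library left out the log2 fold change lay between 1.04 and 1.73 and the adjusted p between 0.0502 and 0.452. Its paralogs, taken from the list of related PPAR target genes, were level, with log2 fold changes of 0.00 for Pdk1, 0.09 for Pdk2 and -0.08 for Pdk3. Pdk4 made up 13.5% and 8.84% of the summed CPM of the 4 kinase genes in IEC+/+ and 22.8% and 25.8% in IEC-/-. Angptl4, a secreted inhibitor of lipoprotein lipase induced by PPARs and by hypoxia, was lower in both IEC-/- libraries, at 5.75 and 9.23 against 4.46 and 4.88 CPM (-0.68, SE 0.34, adjusted p = 0.40). Its log2 fold change was -0.98 without IEC+/+ replicate 1 and -0.30 without IEC+/+ replicate 2.

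Transporters that take up butyrate were the only related genes to pass by edgeR. In a list of butyrate uptake and activation 7 of 10 genes were tested, and 2 fell by edgeR, Slc5a8 and Slc16a1, both transporters of short-chain acids. Slc5a8 is also one of the colonocyte markers above, and its values were 95.8 and 50.4 CPM in the IEC+/+ libraries, and 6.44 and 9.15 in those of IEC-/- (fitted log2 change -3.23, SE 0.37, adjusted p = 0.0413). Slc16a1, the monocarboxylate transporter that also carries lactate and ketone bodies, had 132.5 and 119 against 50.2 and 57.5 CPM (fitted log2 change -1.22, SE 0.13, adjusted p = 0.0413). Without IEC+/+ replicate 1 the log2 fold change of Slc16a1 was -1.14, and without IEC+/+ replicate 2 it was -1.30. For Slc5a8 these were -2.69 and -3.62. Neither gene passed in these smaller fits, which held only 1 IEC+/+ library, and no other gene of the series did. By limma-voom only Slc16a1 of the list was called (0.048), Slc5a8 having 0.0714. DESeq2 called 3 of the list lower and 1 higher, and the exact test 3 lower.

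The list of other uptake and carnitine genes held the carrier that links the transferases of the shuttle. Of 16 genes 14 were tested and 0 passed by edgeR or limma-voom (1 lower and 3 higher with the unadjusted p held to 0.05 by edgeR), while DESeq2 and the exact test each called 1 lower. That gene was Slc25a20, the carnitine-acylcarnitine translocase, with 78.9 and 73.7 CPM in the IEC+/+ libraries, and 42.9 and 42.7 in those of IEC-/-. Its log2 fold change was -0.83 (SE 0.11) and its adjusted p 0.0514 by edgeR, 9.895e-06 by DESeq2 and 0.000993 by the exact test. The fatty acid transport genes Slc27a1 (log2 fold change 0.33, adjusted p = 0.288) and Slc27a2 (1.61, adjusted p = 0.294) were higher, the latter with 14.9 CPM in IEC-/- replicate 1 and 4.38 CPM in replicate 2. Cd36, the fatty acid translocase, overlapped, with 9.26 and 3.78 against 6.58 and 3.58 CPM.

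Further oxidation enzymes did not pass by edgeR. Of 17 other mitochondrial genes, all tested, 11 were lower and 6 higher (median -0.09). By edgeR 0 passed (2 lower and 1 higher with the unadjusted p held to 0.05), and DESeq2 and the exact test each called 1 and limma-voom 0. Acad11, an acyl-CoA dehydrogenase family gene, was at 52.0 and 57.9 CPM in the IEC+/+ libraries, and 32.1 and 29.8 in those of IEC-/- (-0.83, SE 0.13, adjusted p = 0.0621 by edgeR and 0.000173 by DESeq2). Echdc1 and Echdc2, enoyl-CoA hydratase domain genes, had -0.38 and 0.61. Of 19 other peroxisomal genes 18 were tested and 0 passed by edgeR or limma-voom (3 lower and 1 higher by each with the unadjusted p held to 0.05). DESeq2 called 1 lower and the exact test 1 higher, Abcd2. Acot4 had a log2 fold change of -1.67, and Abcd2, a peroxisomal fatty acid transporter, 2.32, from only 5 and 6 counts in IEC+/+ and 33 and 25 counts in IEC-/-.

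The receptors themselves were next compared. Of 15 genes for PPARs, partners and coactivators 14 were tested, and 0 passed by edgeR or limma-voom. With the unadjusted p held to 0.05, each of these had 6 lower and 0 higher. The background was 9.12% lower by each, and 7.50% higher by edgeR and 6.82% by limma-voom. DESeq2 and the exact test each called 3 lower (background 4.90% and 3.37%). Ppard, which is widely expressed, had 94.8 and 104.6 CPM in the IEC+/+ libraries, and 63.0 and 62.6 in those of IEC-/- (-0.67, SE 0.12, adjusted p = 0.0762 by edgeR and 0.000557 by DESeq2). Pparg had 33.8 and 28.9 against 17.8 and 11.97 CPM (-1.07, SE 0.24, adjusted p = 0.1252 and 0.00359). Hnf4a, an epithelial transcription factor of lipid and differentiation genes, had 582 and 540 against 344 and 232 CPM (-0.96, SE 0.21, adjusted p = 0.113 and 0.000623). In these 3 the groups did not overlap. Ppara was low and overlapped, at 8.57 and 3.52 against 4.89 and 4.76 CPM, and the coactivator gene Ppargc1a had 35.2 and 31.1 against 44.2 and 24.1 CPM.

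The list of other PPAR target genes, which holds genes with further inputs, went in both directions, with more genes lower than higher. Of 27 genes 21 were tested, 12 lower and 9 higher (median -0.08). By edgeR and limma-voom 0 passed. With the unadjusted p held to 0.05, each had 6 lower (background 9.12%) and 1 higher (background 7.50% by edgeR and 6.82% by limma-voom). DESeq2 called 5 lower and 1 higher (background 4.90% and 2.93%), and the exact test 3 lower (background 3.37%). Hmox1, which encodes heme oxygenase, and Me1, the cytosolic malic enzyme, were lower by log2 fold changes of -1.31 and -1.13 (edgeR, adjusted p 0.111 and 0.123). Scd1, the stearoyl-CoA desaturase, had 199 and 157 CPM in the IEC+/+ libraries, and 257 and 278 in those of IEC-/- (0.59, adjusted p = 0.164). Cyp4a14 and Plin1 had 0 counts in all 4 libraries.

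**Figure D3:**
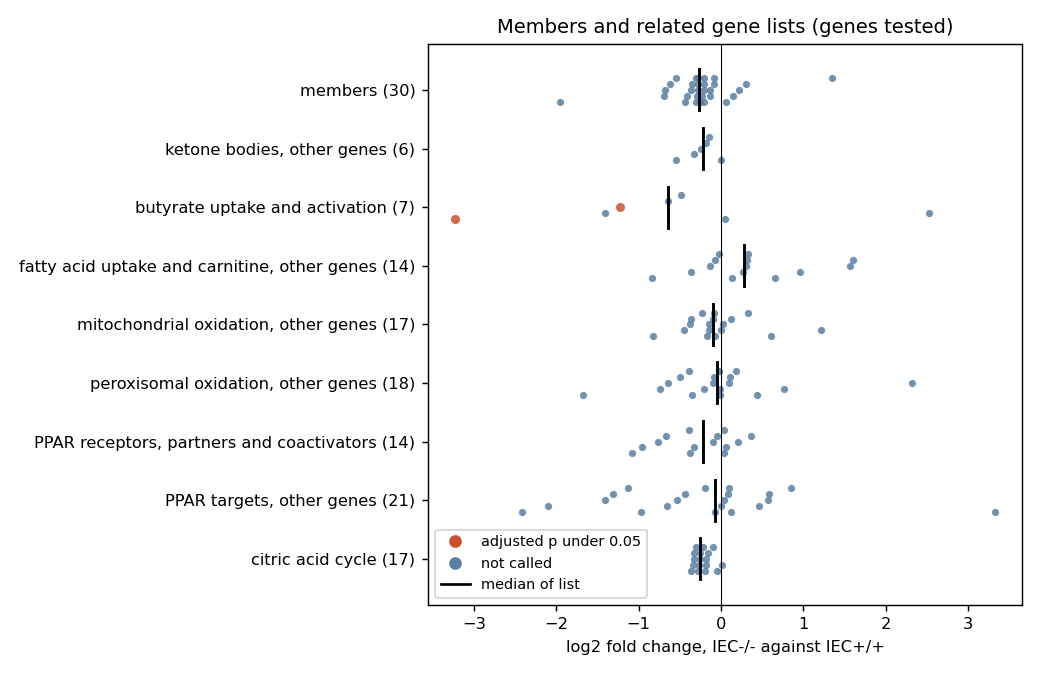
Log2 fold change (IEC-/- against IEC+/+) of each gene tested in the members and 8 related lists, with the number tested in brackets, black bars for medians and orange points for the 2 genes called by edgeR. The medians of the members (-0.27) and the citric acid cycle (-0.25) lie close together, and the called genes are Slc5a8 and Slc16a1.

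Citric acid cycle genes, the mitochondrial pathway that takes up acetyl-CoA, had values much like those of the members. Of 17 genes tested 16 were lower (median -0.25), beside 48.5% of all genes. In 15 the IEC-/- values lay wholly below the IEC+/+ values, beside 24.1% of all genes. By any of the 4 tests 0 passed. With the unadjusted p held to 0.05, edgeR and the exact test had 0, and DESeq2 and limma-voom 1 lower each. Suclg2, a succinyl-CoA ligase subunit, and the succinate dehydrogenase subunits Sdhd and Sdhb stood at -0.33, -0.28 and -0.31 on the log2 scale (edgeR, adjusted p 0.304, 0.305 and 0.311). The summed CPM of the 31 members was 64.5 and 67.5 per 100 CPM of the citric acid cycle genes in IEC+/+ and 64.3 and 68.3 in IEC-/-, so this ratio did not separate the groups.

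Epithelial markers were lower by more than the members. The summed level of the 31 members was 1882 and 1758 CPM in the IEC+/+ libraries, and 1566 and 1568 in those of IEC-/-. Per 100 CPM of the 10 general epithelial markers this was 15.7 and 17.3 in IEC+/+ and 24.1 and 25.6 in IEC-/-. All 10 of these markers had fitted changes under 0, beside 48.5% of all genes, with a median log2 fold change of -0.95. Epcam (-0.30) and Krt18 (-0.07) were close to or above the members' median, so the ratio depends on which markers are summed. Heat shock genes, listed as a sign of sample handling, were also lower (sums of 5008 and 7961 CPM against 3302 and 3216 CPM). In 7 of 7 the IEC-/- values lay wholly below the IEC+/+ values, beside 24.1% of all genes. Immediate-early genes, also listed as a sign of handling, overlapped in sum (1277 and 1031 CPM against 1036 and 948.5 CPM). Of these 7, 6 had fitted changes under 0 and 1 above, and 3 lay wholly below. The part of the epithelial, heat shock and immediate-early levels in the members' values was not tested. Smooth muscle markers summed to 472 and 186 CPM in the IEC+/+ libraries, and 230 and 254 in those of IEC-/-, so they were highest in the library that was also highest for most members, and their part was not tested either. Fibroblast markers were also highest in IEC+/+ replicate 1, with sums of 3433 and 2109 against 2253 and 1945 CPM, 6 of 6 lower and a median of -0.37. Macrophage markers were higher in 5 of 6 (median 0.43), with sums of 352 and 273 against 453 and 356 CPM. In these 3 lists 0 genes passed by edgeR (2 smooth muscle and 1 fibroblast marker lower and 1 macrophage marker higher with the unadjusted p held to 0.05), and the part of fibroblast and macrophage levels in the members' values was not tested. Of the adipocyte markers, Adipoq, Lep and Plin1 were at 0 in all libraries, and Cfd and Retn were at 0 in 3 of them. The other 5 were tested and 0 passed by edgeR (1 lower with the unadjusted p held to 0.05). Pck1, Cidec and Car3 had log2 fold changes of -3.41, -1.41 and -0.83, and Lipe and Fabp4 had 0.57 and 0.27. The 10 adipocyte markers summed to 27.7 and 22.8 CPM against 20.03 and 18.98 CPM. Myh1 and Myh4, of the 7 skeletal muscle markers, and Fgb, of the 10 hepatocyte markers, were at 0 as well. The other markers of both lists had counts. The skeletal muscle markers summed to 4.48 and 4.28 CPM in the IEC+/+ libraries, and 2.70 and 3.28 in those of IEC-/-. The 2 of them that were tested did not pass by edgeR. The hepatocyte markers summed to 195.8 and 215 against 199.7 and 210.5 CPM. Of 7 hepatocyte markers tested, 1 rose and 1 fell. Alb rose from 10.04 and 9.27 to 88.8 and 55.7 CPM, and Apob, which intestinal epithelium also expresses, fell from 103 and 66.7 to 6.22 and 10.5 CPM (edgeR adjusted p = 0.0403 for each).

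**Figure D4:**
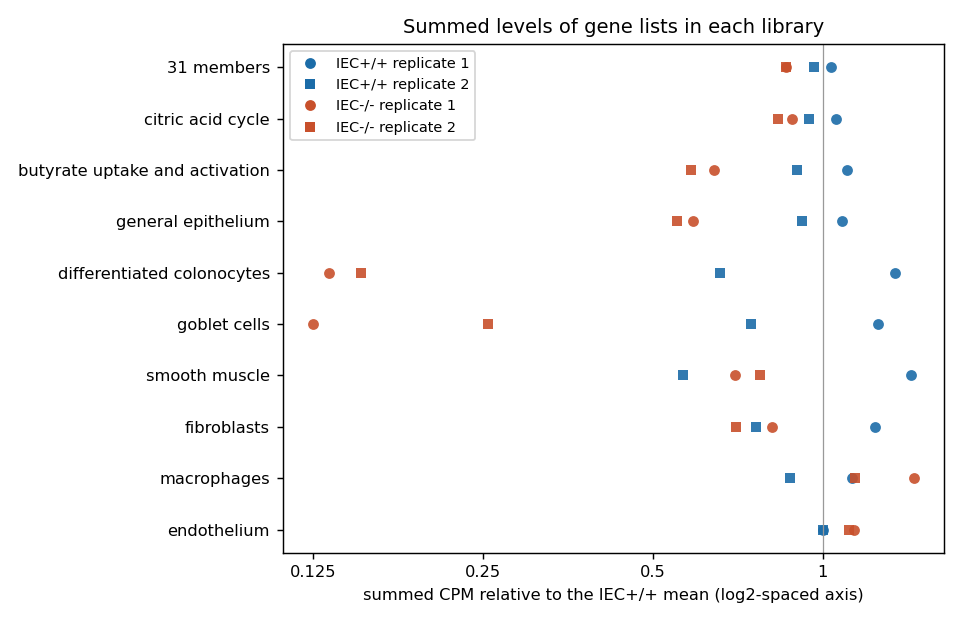
Summed CPM of the 31 members, related lists and cell type markers in each library, relative to the IEC+/+ mean (log2-spaced axis); blue is IEC+/+ and orange IEC-/-, circles replicate 1 and squares replicate 2. The members and citric acid cycle genes lie a little further left in both IEC-/- libraries than in either IEC+/+ library. Colonocyte and goblet cell markers lie far to the left in both IEC-/- libraries.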

How the data were processed

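RNA was extracted with TRIzol, and NEBNext Ultra libraries were sequenced as paired reads of 150 bases, per the labels' protocols. TopHat, limma, edgeR and the build mm10 are named in the submitters' processing notes, without role; the counter, the annotation and any use of strand are not given in the sources used here. Each deposited file holds raw counts, 1 whole number a gene symbol, not normalized by the authors.

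Groups and replicate numbers came from the sample titles. Counts were tested with edgeR 4.0.16 (R 4.3.3): TMM scaling (factors 0.955 to 1.05), the default expression filter, the quasi-likelihood F-test on group alone (IEC-/- minus IEC+/+), and Benjamini-Hochberg adjustment over all 16637 genes kept, called at 0.05. SEs were derived from the F statistic. Alternatives were RLE size factors, no filter, DESeq2 1.42.0, the exact test of edgeR, limma-voom (limma 3.58.1), each library left out in turn (with the same genes) and a replicate block. Only the quasi-likelihood fit on group alone was tested on simulated counts, and the alternatives were not. The chi-square per degree of freedom between libraries was 33.8 to 128, so none repeated another.

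The members and lists were chosen with earlier results of these data known. Named genes were all members, and of each related list the called genes or else the 3 of smallest p, plus 10 chosen by role; Pdk1 to Pdk3 and single marker genes (Epcam, Krt18, those of adipocytes, Alb, Apob) were chosen after their values were seen. Some of the genes this rule names are not reported here. Lists were described by counts and medians, without set tests. All 31 members and all related genes matched by symbol. Positions and promoters are from RefSeq (GRCm38), exon lengths and transcripts from GENCODE M21. Paralogs were compared by transcript, in place of the protein comparison planned.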

Additional observations from a re-analysis of the deposited data

How the results depend on the processing

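Of 300 refitted member values, 291 kept their direction and side of the threshold. The count of members called was 0 in the main fit, with RLE size factors, without the filter, by limma-voom, with any library left out and with the replicate block, and 2 by DESeq2 and by the exact test (Pdk4 and Bdh1). The sign turned for 4 members that were not called when 1 library was left out: log2 fold changes then ranged from -0.39 to 0.014 for Acadm, -0.46 to 0.25 for Acot2, -0.31 to 0.069 for Acadl and -0.32 to 0.013 for Etfb. All genes called were 147, and 376 without the filter, 1303 by DESeq2, 869 by the exact test, 78 by limma-voom, 211 with the replicate block and 0 to 749 with 1 library left out. Related genes called were 2, and 5, 16, 12, 1, 2 and 0 to 10 in the same order. The cause was not tested. Members holding the promoter element were 3, and 1 with at most 1 mismatch.

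The replicate number has no stated meaning across groups, and same-numbered libraries deviated from their group means with a correlation of 0.16 over all genes tested and 0.28 over the members. The replicate block changed no call among the members. With 2 libraries a group, the SE of a member's log2 fold change was 0.12 to 0.73, so differences of the size seen in most members were not separable from the spread between libraries, and members under 10 CPM were the least precise.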

Other observations

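Some genes of the related lists were highest in IEC-/- replicate 2, and they were picked after their values were seen. Vnn1, a pantetheinase gene that PPAR-alpha induces, had 1.81 and 2.76 CPM in IEC+/+, 1.76 CPM in IEC-/- replicate 1 and 44.5 CPM in IEC-/- replicate 2. Fabp5, the epidermal fatty acid binding protein gene, had 15.2, 14.9 and 17.0 CPM in the same libraries and 72.0 CPM in IEC-/- replicate 2. Cyp4a10, a fatty acid omega-hydroxylase gene, had 0 counts in 3 libraries and 2.75 CPM in IEC-/- replicate 2. Acss3, an acyl-CoA synthetase gene for short chains, had 0.502 and 3.29 CPM in the IEC+/+ libraries, and 5.36 and 16.6 in those of IEC-/-, so both of the latter were higher. None of these passed by edgeR where tested (adjusted p = 0.308 for Vnn1, 0.308 for Fabp5 and 0.276 for Acss3, log2 fold changes 3.33, 1.56 and 2.53).

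Other genes near the pathway were low in both IEC-/- libraries. Acsm3, a medium-chain acyl-CoA synthetase gene also credited with butyrate activation, had 55.9 and 35.1 CPM in the IEC+/+ libraries, and 15.5 and 18.7 in those of IEC-/- (fitted log2 change -1.41, SE 0.26, edgeR adjusted p = 0.0838). Creb3l3, a transcription factor gene of lipid metabolism, had 3.05 and 4.39 against 1.26 and 0.457 CPM (-2.11, adjusted p = 0.184). Pck1, the gluconeogenic enzyme gene listed among the adipocyte markers, had 14.3 and 6.70 against 0.791 and 1.18 CPM (-3.41, adjusted p = 0.0591).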
